A study of Mus musculus with 4 samples.

Results

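Of the 39056 genes in the deposited count table, 32 were taken by name as genes of sterol and fatty acid synthesis and its control by sterol regulatory element-binding proteins (SREBPs). All 32 were found by their mouse gene identifiers, and all 32 were measured, which means at least 1 CPM (read counts scaled to library size) in at least 1 library. In all, 11803 genes were measured. The 32 genes fall into 5 role groups: 7 genes of the mevalonate route, 11 of the route from squalene to cholesterol, 5 regulators of SREBP, the sterol carrier gene Stard4, and 8 genes of fatty acid synthesis. The genes were listed by their roles, but with earlier results of these data known.

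Polyadenylated RNA was sequenced in 4 libraries from lungs of S1PR1-GFP reporter mice, which mark cells that express a receptor for sphingosine-1-phosphate with green fluorescent protein. Per the labels, cells carrying GFP and the endothelial protein CD31 but lacking the leukocyte protein CD45 were sorted by flow cytometry, so all 4 libraries share the reporter allele and the sort. The groups are 1 library labelled no LPS and 1 each labelled 8 h, 16 h and 20 h of lipopolysaccharide (LPS, endotoxin, a coat component of Gram-negative bacteria) at 10 mg/kg into the peritoneum. The sources used here do not give ages, the strain background or whether a library pooled several animals. There are no replicates, so a difference between a pair of libraries has no test: it compares libraries, not conditions.

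Cells make cholesterol from acetyl-CoA through mevalonate, isoprenoids, squalene and lanosterol, and make fatty acids from citrate-derived acetyl-CoA. SREBP precursors sit in the endoplasmic reticulum bound to the escort protein Scap. When sterols are low, Scap carries SREBP to the Golgi, proteases release its transcription factor domain, and the genes of both routes are transcribed. When sterols are high, Insig proteins hold Scap back. Insig1 is itself an SREBP target, whereas Insig2 in mouse liver is known for a transcript that insulin represses. Endothelial cells both take up and make sterols, and cholesterol supply shapes their membranes and junctions.

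The libraries did not separate in the order of time. Totals ran from 27566454 to 28905776 reads. Over the genes compared, the chi-square per gene between a pair of libraries, which is about 1 where only sampling noise separates them, was 1.58 for 16 h against 8 h and 6.83 for 20 h against no LPS. The other 4 pairs lay between 68.1 and 73.1. The 8 h and 16 h libraries were thus alike, and so were the 20 h and no LPS libraries. Defining markers of the labelled cell type were at or near 0: of 8 endothelial markers none was measured, Emcn, Erg and Cldn5 had 0 reads in every library, and the 8 together summed to between 1.01 and 1.23 CPM per library. The endothelial identity of the RNA is not borne out by these markers. Whether libraries that are this alike share a source, or whether labels were crossed, was not tested, so a value given for a time is that of the library so labelled. Mitochondrial genes took 1.804%, 1.36%, 1.40% and 1.90% of reads in the no LPS, 8 h, 16 h and 20 h libraries, the same low and high libraries as for many of the genes below, and the part of this difference in their values was not tested.

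The promoters of 5 of these genes are shown first, for these reasons: Insig1, Hsd17b7 and Lss had the lowest ratios at 8 h among the genes with a window, Insig2 was the only gene called higher, and the Hmgcs1 window holds the sterol regulatory element core. The sequences are RefSeq windows on GRCm38.p6, from 250 bases before to 50 bases after an annotated start, written in the direction of transcription. Of the 32 genes 25 had a window in the table used, in 33 windows in all. Not matched were Fdps, Fdft1, Sqle, Stard4, Scd1, Scd2 and Fads1. Capitals mark matches, on either strand, to 4 strings: TCACNCCAC (the core of a sterol regulatory element), CCAAT (the box of NF-Y, a cofactor of SREBP), GGGCGG (the box of Sp1, another cofactor) and CACGTG (an E-box, which SREBP-1 and USF proteins can bind). Matches do not overlap in the windows shown. Insig1 is at chr5:28071162-28071461 on the plus strand, Hsd17b7 at chr1:169969156-169969455 on the minus strand, Lss at chr10:76531355-76531654 on the plus strand, Hmgcs1 at chr13:119690101-119690400 on the plus strand, and Insig2, the upstream 1 of its 3 windows, at chr1:121332540-121332839 on the minus strand.
Insig1: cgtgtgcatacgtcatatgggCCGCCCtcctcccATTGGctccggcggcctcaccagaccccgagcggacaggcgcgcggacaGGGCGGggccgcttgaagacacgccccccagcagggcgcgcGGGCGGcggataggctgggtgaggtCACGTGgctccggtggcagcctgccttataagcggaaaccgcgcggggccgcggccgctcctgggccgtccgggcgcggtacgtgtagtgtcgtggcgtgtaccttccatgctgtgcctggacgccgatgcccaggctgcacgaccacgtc
Hsd17b7: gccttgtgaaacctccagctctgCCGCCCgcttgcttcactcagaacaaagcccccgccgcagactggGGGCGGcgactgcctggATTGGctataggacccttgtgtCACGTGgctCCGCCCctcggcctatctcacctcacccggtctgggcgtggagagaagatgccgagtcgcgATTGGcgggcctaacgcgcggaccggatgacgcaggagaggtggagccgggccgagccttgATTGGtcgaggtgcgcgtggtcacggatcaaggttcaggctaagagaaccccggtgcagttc
Lss: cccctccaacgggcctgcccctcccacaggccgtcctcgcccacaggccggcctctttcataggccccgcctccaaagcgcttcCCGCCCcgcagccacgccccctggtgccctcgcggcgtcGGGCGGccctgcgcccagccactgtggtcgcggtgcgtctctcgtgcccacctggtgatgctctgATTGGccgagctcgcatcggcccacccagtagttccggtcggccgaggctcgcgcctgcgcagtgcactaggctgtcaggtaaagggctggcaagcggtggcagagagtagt
Hmgcs1: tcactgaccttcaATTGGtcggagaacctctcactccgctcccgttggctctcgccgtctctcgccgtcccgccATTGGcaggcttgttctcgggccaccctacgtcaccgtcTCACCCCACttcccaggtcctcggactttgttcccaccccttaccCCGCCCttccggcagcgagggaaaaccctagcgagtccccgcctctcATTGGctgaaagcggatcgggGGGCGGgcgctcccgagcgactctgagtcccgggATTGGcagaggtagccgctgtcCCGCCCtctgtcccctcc
Insig2: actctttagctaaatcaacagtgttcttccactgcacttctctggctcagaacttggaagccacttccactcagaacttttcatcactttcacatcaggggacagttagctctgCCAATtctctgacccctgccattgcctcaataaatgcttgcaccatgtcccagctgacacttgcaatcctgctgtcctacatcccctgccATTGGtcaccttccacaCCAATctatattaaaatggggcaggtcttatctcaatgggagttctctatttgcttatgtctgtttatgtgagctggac

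The sterol element core TCACNCCAC was found in 1 of the 33 windows of these genes (3.03%), that of Hmgcs1, 137 bases before its start, and in 1.24% of all 32851 windows of the same length. CCAAT was in 21 of 33 windows (63.6%), against 37.4% of all windows. In 11 of the 25 genes a window held it more than once, a count for which no share over all windows was taken. GGGCGG was in 25 of 33 windows (75.8%), against 35.7% of all windows. CACGTG was in 6 of 33 windows (18.2%), against 7.15% of all windows, including those of Insig1, 101 bases before the start, and Hsd17b7, 143 bases before. The Insig2 window shown was picked for having the most matches, and holds 3 CCAAT strings and none of the other 3 motifs. The Insig2 windows not shown each hold a GGGCGG string. A match is a description of these letters, not a measured binding site, and windows of 1 gene share sequence.

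Of the 18 sterol synthesis genes, mevalonate route included, 11 were lower in the 8 h library and 11 in the 16 h library than in the no LPS library by the rule of size, none was higher, and none was past the rule in the 20 h library. Over all roles at 8 h, 18 of the 32 genes were lower than with no LPS by this rule and 1, Insig2, was higher. The rule asked for a level at least 20% below the other library's, or at least 25% above it (the same fold in both directions), a 95% counting interval that left out a ratio of 1, and a higher library of 1 CPM or more. Among all measured genes 19.3% were called lower and 20.3% higher by the same rule. At 16 h, 16 were lower and 1 was higher, beside 19.4% and 20.7% of all measured genes. At 20 h none of the 32 was past the rule in either direction, beside 0.796% lower and 4.11% higher among all. The median log2 ratio of the 32 genes was −0.33 in both the 8 h and 16 h comparisons and −0.01 in that of 20 h, while that of all measured genes stayed within 0.01 of 0. In bulk RNA, fewer cells of a type and less RNA per cell cannot be told apart.

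Most of the differences at 8 h and 16 h were small and in the same direction. The counting interval lay wholly below 1 for 25 of the 32 genes at 8 h, beside 34.8% of all measured genes, for 28 at 16 h, beside 35.1%, and for 3 at 20 h, beside 11.9%. The interval covers counting error only, since the reads carry no molecular identifiers and the spread between animals is unknown. Larger differences were few. At 8 h 3 genes (Insig1, Scd2 and Hsd17b7) were at least 2-fold lower, beside 4.13% of all measured genes, and at 16 h 4 were (the same with Idi1), beside 4.09%. The 10th and 90th percentiles of all measured genes at 8 h were log2 ratios of −0.58 and 0.63, and Insig1, Scd2, Hsd17b7, Lss, Idi1 and Fdps lay below that range. Of the 11803 measured genes, 170 had a lower log2 ratio at 8 h than Insig1, 332 than Scd2, 388 than Hsd17b7 and 514 than Lss.

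**Figure D1:**
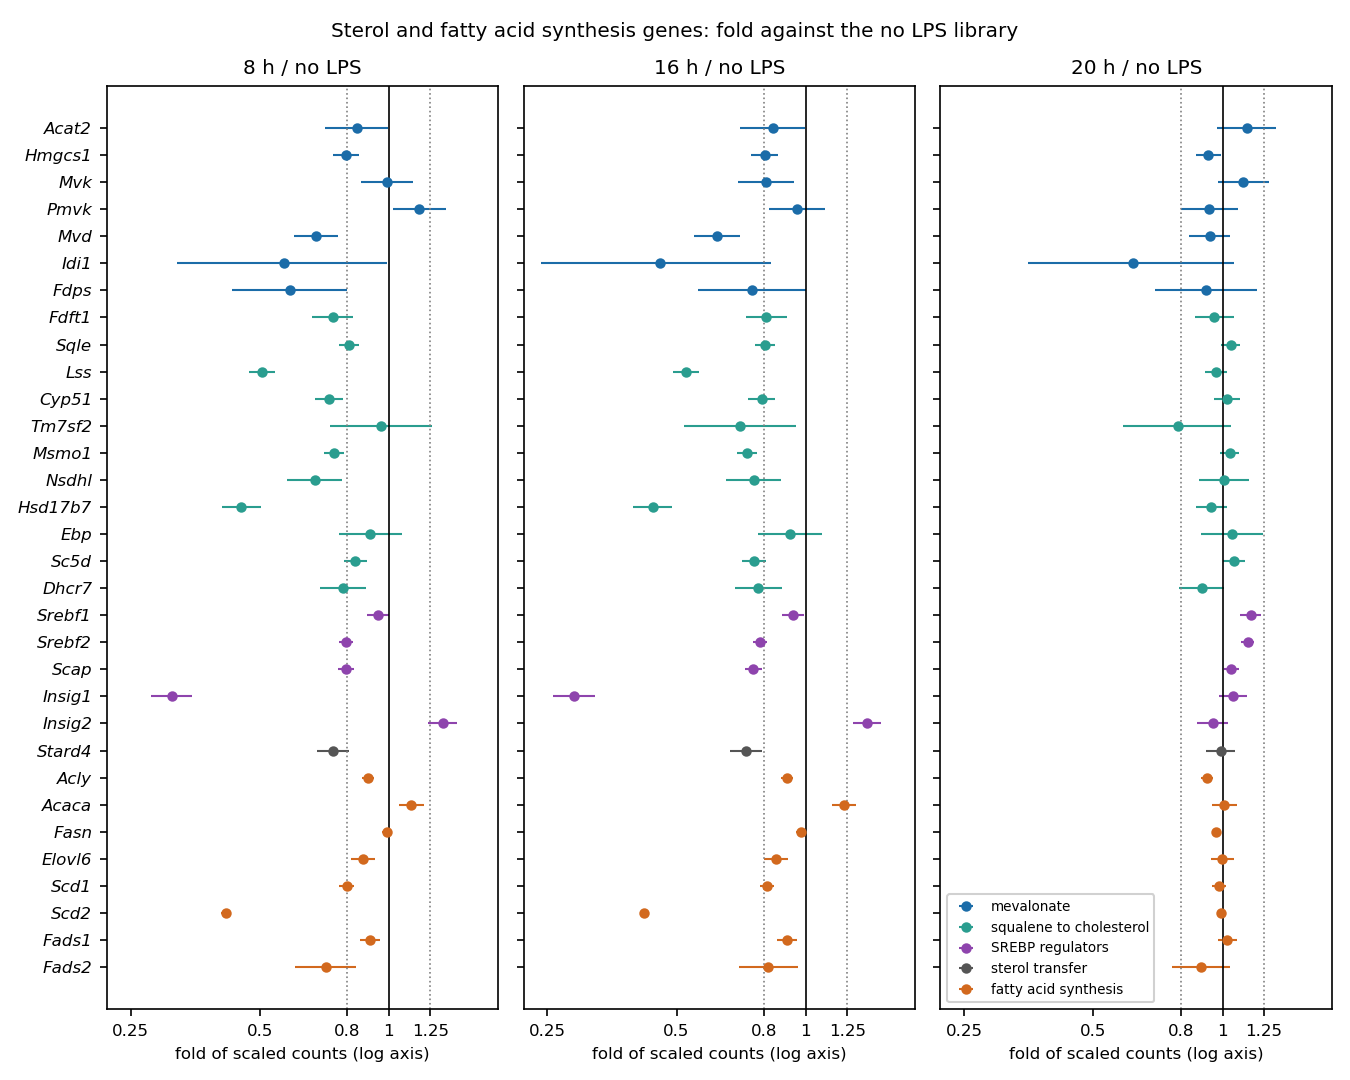
Fold of scaled counts of each of the 32 genes in the 8 h, 16 h and 20 h libraries over the no LPS library, on a log axis, coloured by role; lines are 95% counting intervals and dotted lines mark the folds of the rule. Most sterol genes sit left of 1 at 8 h and 16 h, with Insig1, Scd2, Hsd17b7 and Lss farthest left and Insig2 to the right, and at 20 h no gene passes the rule.

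The regulators of SREBP gave both the lowest ratio and the only higher call. Insig1, which retains the SREBP escort in the endoplasmic reticulum (chromosome 5, 28071363 to 28078662, plus strand), had 1388, 439, 393 and 1441 reads in the no LPS, 8 h, 16 h and 20 h libraries, or 49.1, 15.3, 14.2 and 52.0 CPM. The 8 h and 16 h libraries were low and the other two were high. Insig1 was 3.21-fold lower at 8 h than with no LPS (interval 2.88 to 3.58) and 3.46-fold lower at 16 h (3.09 to 3.88). At 20 h it was 1.06 times the no LPS level, with an interval from 0.984 to 1.14. Its promoter window, printed above, holds 1 CCAAT, 3 GGGCGG and 1 CACGTG string.

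Insig2, the second retention protein of the pair (chromosome 1, 121304353 to 121332589, minus strand), went the other way. It had 41.5, 55.4, 57.6 and 39.4 CPM in the no LPS, 8 h, 16 h and 20 h libraries. It was 1.33-fold higher at 8 h than with no LPS (1.24 to 1.44) and 1.39-fold higher at 16 h (1.29 to 1.498). Within each library, per kilobase of exon, the ratio of Insig1 to Insig2 was 1.33 in the no LPS library, 0.310 and 0.276 in the 8 h and 16 h libraries and 1.48 in the 20 h library. A ratio within a library does not depend on the scaling between libraries. Insig1 was thus the more abundant of the pair per length in the no LPS and 20 h libraries, and Insig2 in the 8 h and 16 h libraries.

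The gene for SREBP-2, the form best known for sterol genes, was Srebf2 (chromosome 15), at 219, 173, 171 and 250 CPM in the no LPS, 8 h, 16 h and 20 h libraries. It was 1.26-fold lower at 8 h (1.21 to 1.31) and 1.28-fold lower at 16 h (1.23 to 1.33) than with no LPS, and 1.14 times the no LPS level at 20 h (1.11 to 1.18), short of the rule. Scap, the escort, had 162, 128, 122 and 170 CPM and was 1.26-fold lower at 8 h and 1.32-fold lower at 16 h. Srebf1, whose products are known for fatty acid genes, did not pass the rule at any time. Its levels were 80.8, 76.1, 75.4 and 93.9 CPM, and its exons overlap those of Rai1 on the opposite strand. The ratio of Srebf2 to Srebf1 per kilobase was 2.12, 1.79, 1.78 and 2.09.

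In the mevalonate route 4 of 7 genes were lower at 8 h and 3 at 16 h, with none higher, and the median log2 ratios were −0.33 and −0.32. Hmgcs1 makes HMG-CoA, the precursor of mevalonate, and carries the sterol element core in the window above. It had 61.8, 49.0, 49.6 and 57.2 CPM in the no LPS, 8 h, 16 h and 20 h libraries. It was 1.26-fold lower at 8 h (1.17 to 1.35) and lay just outside the rule at 16 h, at 1.247-fold lower. Mvd, which makes isopentenyl diphosphate, had 24.2, 16.4, 15.1 and 22.6 CPM and was 1.48-fold lower at 8 h and 1.61-fold lower at 16 h.

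Idi1, the isomerase of isopentenyl diphosphate, rested on few reads: 38, 22, 17 and 23 in the no LPS, 8 h, 16 h and 20 h libraries. It was 1.75-fold lower at 8 h with an interval of 1.01 to 3.11, and 2.19-fold lower at 16 h with 1.21 to 4.14. It was the only gene of the 32 under 1 CPM in any library, and stretches of its transcript are identical to the pseudogene Gm13502 over 684 bases. Fdps, which makes farnesyl diphosphate, had 4.14, 2.44, 3.10 and 3.79 CPM and was 1.70-fold lower at 8 h (1.252 to 2.32). It shares 1124 exonic bases on the same strand with the gene model Gm43738 and is near-identical to 4 pseudogenes, so its count is uncertain.

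The other mevalonate genes did not pass the rule against no LPS. Acat2, which joins acetyl-CoA units and is 97.7% identical to Acat3 over 1477 bases, had 10.6, 8.95, 8.91 and 12.1 CPM in the no LPS, 8 h, 16 h and 20 h libraries. Mevalonate kinase, Mvk, had 14.5, 14.4, 11.7 and 16.2 CPM, so its 8 h library was at the no LPS level and its 16 h library was 1.24-fold lower. Phosphomevalonate kinase, Pmvk, had 12.6, 14.9, 12.1 and 11.8 CPM and was 1.18 times the no LPS level at 8 h, with an interval of 1.02 to 1.36. Of these 3 genes, Acat2 and Mvk were lowest in the 16 h library and Pmvk in the 20 h library.

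From squalene to cholesterol, 7 of 11 genes were lower at 8 h and 8 at 16 h, none higher, with median log2 ratios of −0.43 and −0.40. Hsd17b7 is the 3-ketosteroid reductase of the route (chromosome 1, 169949535 to 169969241, minus strand). It had 41.1, 18.6, 18.1 and 38.8 CPM in the no LPS, 8 h, 16 h and 20 h libraries. Hsd17b7 was 2.21-fold lower at 8 h (1.99 to 2.45), 2.28-fold lower at 16 h (2.05 to 2.53) and 1.06-fold lower at 20 h (0.976 to 1.15). The 8 h and 16 h libraries again stood below the other two.

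Lss, lanosterol synthase, closes the sterol rings (chromosome 10, 76531588 to 76557138, plus strand). It had 84.5, 42.8, 44.4 and 81.5 CPM in the no LPS, 8 h, 16 h and 20 h libraries, and was 1.97-fold lower at 8 h (1.84 to 2.11). At 16 h it was lower by nearly as much, with an interval of 1.78 to 2.04, and at 20 h it was 1.04-fold lower (0.978 to 1.10). Next to it in the route, Sqle, the squalene epoxidase known as a rate-limiting step, had 109, 88.4, 88.1 and 114 CPM. Sqle lay just outside the rule at both times, 1.24-fold lower at 8 h (1.17 to 1.30) and 1.24-fold lower at 16 h (1.18 to 1.31). Neighbouring steps therefore differed in size in the same libraries.

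The remaining steps gave smaller ratios. Msmo1, a C4-methylsterol oxidase, had 113, 83.8, 82.1 and 117 CPM in the no LPS, 8 h, 16 h and 20 h libraries and was 1.34-fold lower at 8 h and 1.37-fold lower at 16 h. Cyp51, the lanosterol demethylase, had 58.8, 42.6, 46.4 and 60.3 CPM and was 1.38-fold and 1.27-fold lower at those times. Nsdhl, which works with Msmo1 in removing the C4 methyl groups, was 1.49-fold lower at 8 h and 1.32-fold lower at 16 h. Dhcr7, which makes cholesterol from 7-dehydrocholesterol, was 1.28-fold and 1.29-fold lower. For these 4 genes the 8 h and 16 h libraries were the low ones. Exons of Cyp51 overlap 166 bases of Akap9 on the opposite strand, and transcript models on the opposite strand also overlap exons of Hmgcs1, Lss and Scap, so without known strand handling a part of these counts is uncertain.

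A few genes passed the rule at 1 time only. Fdft1, squalene synthase, had 26.0, 19.2, 21.0 and 24.8 CPM in the no LPS, 8 h, 16 h and 20 h libraries and was 1.35-fold lower at 8 h (1.21 to 1.51). At 16 h Fdft1 was 1.24-fold lower, and its exons overlap those of Ctsb on the opposite strand. Sc5d, lathosterol oxidase, had 77.7, 64.9, 58.9 and 82.5 CPM and was 1.20-fold lower at 8 h, short of the rule, and 1.32-fold lower at 16 h. These are calls on either side of a threshold, not tested differences between the times.

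Tm7sf2, a sterol C14 reductase, was the only one of the 32 genes past the rule between 16 h and 8 h. It had 4.00, 3.83, 2.82 and 3.14 CPM in the no LPS, 8 h, 16 h and 20 h libraries, 1.36-fold lower at 16 h than at 8 h. Among all measured genes 0.669% were called lower and 1.02% higher in that comparison. Its exons share 532 bases with Vps51 on the same strand, so its reads are uncertain. Ebp, the sterol isomerase, had 10.2, 9.20, 9.31 and 10.7 CPM and passed the rule at no time.

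Stard4, which carries cholesterol between membranes, had 45.4, 33.6, 32.9 and 44.9 CPM in the no LPS, 8 h, 16 h and 20 h libraries. It was 1.35-fold lower at 8 h (1.24 to 1.47) and 1.38-fold lower at 16 h (1.27 to 1.505). At 20 h the interval of its fold lay across 1.

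**Figure D2:**
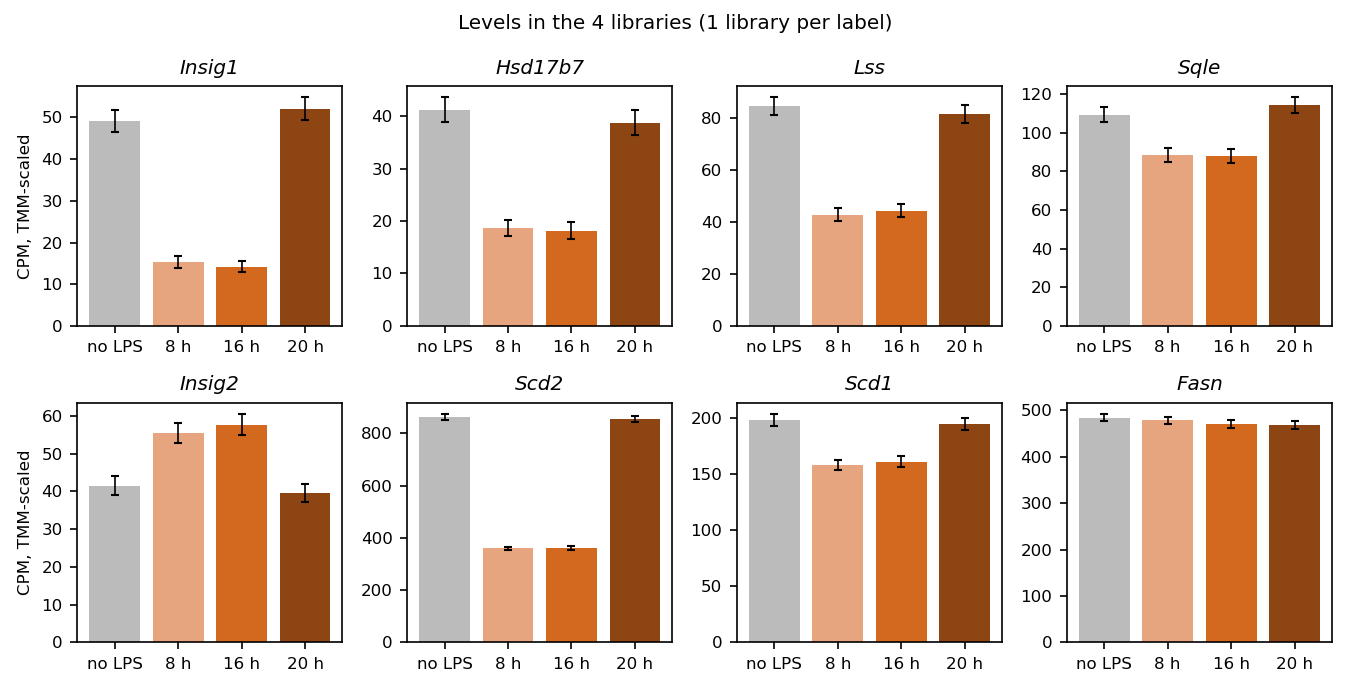
Levels in TMM-scaled CPM of 8 of the genes in the 4 libraries, with 1 bar per library and exact 95% Poisson counting intervals. Insig1, Hsd17b7, Lss and Scd2 are low at 8 h and 16 h, Sqle and Scd1 less so, Insig2 is high at those times, and Fasn lies between 468 and 484 CPM throughout.

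Fatty acid synthesis gave fewer calls than the sterol route and 1 large ratio. Of its 8 genes, 3 were lower at 8 h (Scd1, Scd2 and Fads2), 1 at 16 h (Scd2) and none at 20 h, with median log2 ratios of −0.18, −0.19 and −0.02. The 1 of 8 at 16 h is a smaller share than the 19.4% of all measured genes called lower then, and with 8 genes these counts show nothing particular to them. Whether these shares differ from those of the sterol route was not tested. Scd2 is a stearoyl-CoA desaturase, which puts the double bond into newly made fatty acids (chromosome 19, 44293674 to 44306864, plus strand). It had 24415, 10325, 10044 and 23681 reads in the no LPS, 8 h, 16 h and 20 h libraries, or 864, 360, 363 and 855 CPM. Scd2 was 2.40-fold lower at 8 h (2.35 to 2.46), 2.38-fold lower at 16 h (2.33 to 2.44) and 1.01-fold lower at 20 h (0.992 to 1.03).

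The paralogue Scd1 had 198, 158, 161 and 195 CPM in the no LPS, 8 h, 16 h and 20 h libraries. At 8 h it sat just inside the rule, with an interval of 1.21 to 1.31 for the fold by which it was lower, and at 16 h just outside, at 1.23-fold lower. The ratio of Scd2 to Scd1 per kilobase was 3.90, 2.04, 2.02 and 3.93 in the same order. The transcripts are 95.5% identical over 623 bases, so some reads could have been counted to either. Fads2, the delta-6 desaturase of polyunsaturated fatty acids, had 12.7, 9.06, 10.4 and 11.3 CPM and was 1.40-fold lower at 8 h (1.19 to 1.65). Fads1, the delta-5 desaturase beside it on chromosome 19, had 97.0, 87.8, 87.8 and 99.6 CPM and did not pass the rule.

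The enzymes that build the carbon chain did not pass the rule against the no LPS library. Fasn, fatty acid synthase, had 484, 479, 471 and 468 CPM in the no LPS, 8 h, 16 h and 20 h libraries. Its fold at 8 h was 1.01-fold lower, with an interval of 0.989 to 1.04. Acly, which makes cytosolic acetyl-CoA from citrate, had 261, 234, 236 and 240 CPM. Acaca, the acetyl-CoA carboxylase, was higher than with no LPS by less than the rule, 1.13 times at 8 h (1.06 to 1.20) and 1.23 times at 16 h (1.15 to 1.31), and 6118 of its bases have a 99.2% identical pseudogene. Elovl6, which lengthens palmitate and has a near-identical pseudogene, had 72.0, 62.6, 61.5 and 71.9 CPM.

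By level per kilobase of exon, a scale on which genes can be set beside each other, the order began with Scd2, Acly, Fasn, Scd1 and Srebf2 in all 4 libraries. Scd2 stood at 158, 65.8, 66.3 and 157 CPM per kb in the no LPS, 8 h, 16 h and 20 h libraries, and Acly, next in order, at 49.5, 44.2, 44.7 and 45.5. Acly and Fasn were close, with Fasn between 42.8 and 44.2 CPM per kb. Idi1 was the lowest in every library. Insig1 held place 11 of 32 in the no LPS and 20 h libraries and place 20 at 8 h and 16 h. Insig2 was at place 16 in the no LPS and 20 h libraries, at 8 in the 8 h library and at 7 in the 16 h library. Exon lengths are unions over annotated transcripts, so a gene with long rare exons, such as Lss at 10787 bases, is placed lower than its main transcript would be.

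Set against Fasn in the same library, per kilobase, 3 of the genes with the lowest ratios showed the pattern without any scaling between libraries. The ratio of Scd2 to Fasn was 3.57, 1.51, 1.54 and 3.66 in the no LPS, 8 h, 16 h and 20 h libraries. The ratio of Lss to Fasn was 0.177, 0.0909, 0.0956 and 0.177. That of Hsd17b7 to Fasn was 0.182, 0.0835, 0.0823 and 0.178. These ratios show unequal change between the genes of a pair and do not show which of them was steady.

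As a sum, the 32 genes took 3337, 2446, 2438 and 3344 CPM in the no LPS, 8 h, 16 h and 20 h libraries. Scd2 alone made up 864, 360, 363 and 855 CPM of this. Without Scd2 the sums were 2473, 2087, 2075 and 2489 CPM. The genes from squalene to cholesterol summed to 560, 400, 399 and 567 CPM, and the mevalonate genes to 129, 107, 101 and 125 CPM.

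The 20 h and 16 h libraries give a comparison that shares no library with 8 h against no LPS. At 20 h, 15 of the 32 genes were higher than at 16 h by the rule and 1 was lower, Insig2. Among all measured genes 21.2% were called higher and 19.8% lower. Insig1 was 3.67-fold higher at 20 h than at 16 h (3.28 to 4.11), Scd2 2.36-fold (2.30 to 2.41), Hsd17b7 2.14-fold (1.93 to 2.39) and Lss 1.84-fold (1.71 to 1.97). Insig2 was 1.46-fold lower (1.35 to 1.58). The other 11 higher genes were Mvd, Srebf2, Msmo1, Sc5d, Scap, Mvk, Stard4, Acat2, Nsdhl, Cyp51 and Sqle, with folds from 1.30 to 1.502.

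For 31 of the 32 genes (96.9%) the log2 ratio of 20 h to 16 h had the opposite sign to that of 8 h to no LPS, and for 10277 of all 11803 measured genes (87.1%) it did too. Of the 18 genes lower at 8 h, 11 (61.1%) were called higher at 20 h than at 16 h. Of all 2280 measured genes lower at 8 h, 1882 (82.5%) were. Among genes called lower at 8 h, the share was thus smaller for the 32 genes. Over whole sets, both calls were met by 34.4% of the 32 genes and 15.9% of all measured genes. Whether these shares differ was not tested. The pattern of 2 low and 2 high libraries was shared by the whole table.

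**Figure D3:**
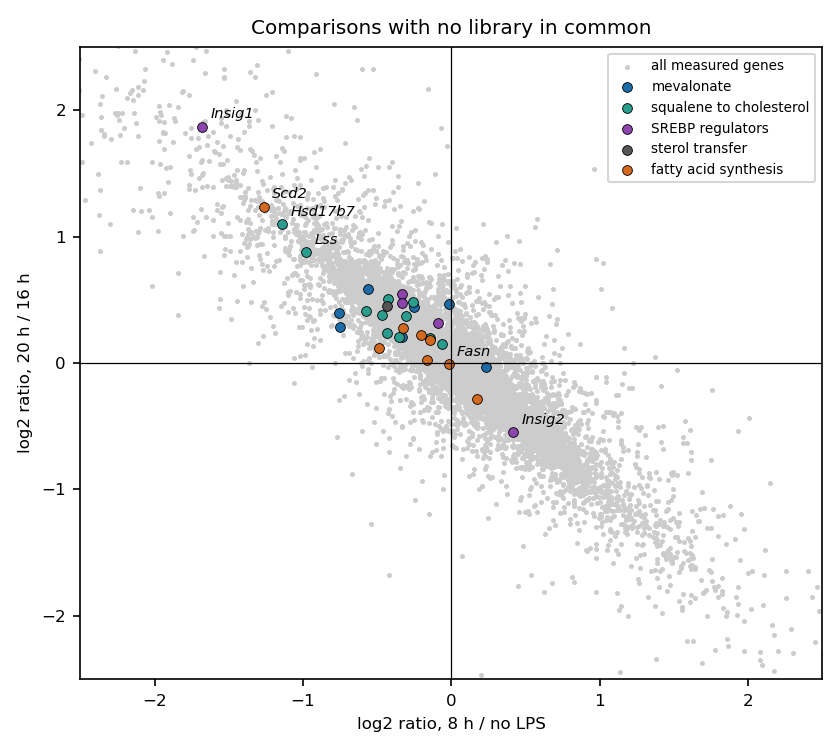
Log2 ratio of 20 h to 16 h against log2 ratio of 8 h to no LPS, which share no library; grey points are measured genes within the axes and coloured points the 32 genes by role. Insig1, Scd2, Hsd17b7 and Lss lie at the upper left, Insig2 at the lower right, and both the grey points and the 32 genes run along the falling diagonal.

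**Figure D4:**
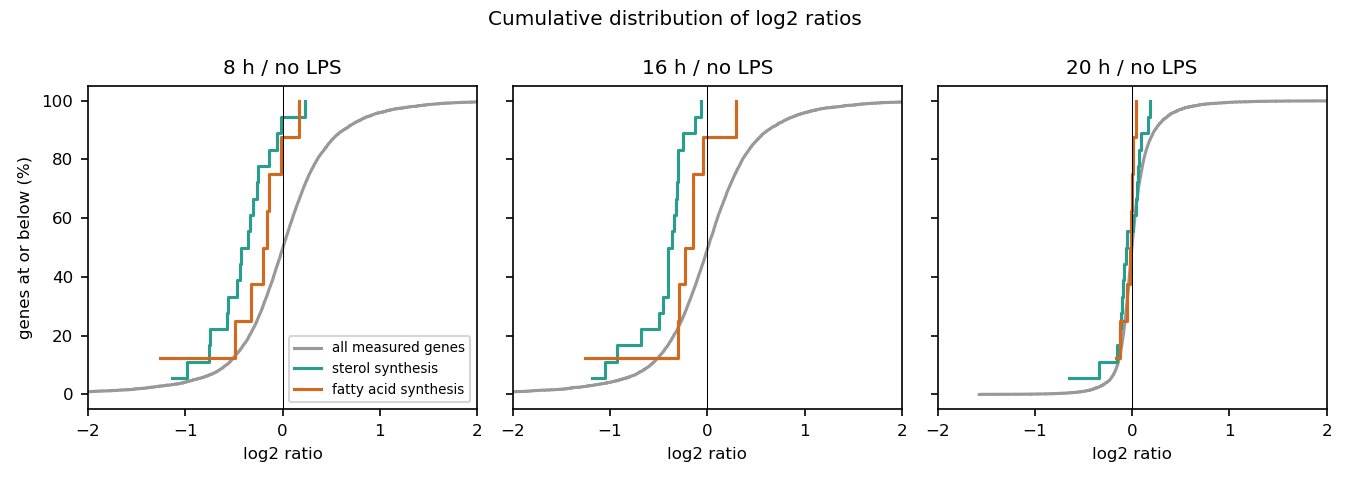
Share of genes at or below each log2 ratio against no LPS, for all 11803 measured genes (grey), the 18 sterol synthesis genes (green) and the 8 fatty acid synthesis genes (orange). At 8 h and 16 h the sterol curve lies left of the grey one, with medians of −0.39 and −0.38, and at 20 h the curves come together near 0.

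Other genes of the pathway were taken from 4 lists set by role, also with earlier results of these data known. Their counts are to be read against the shares of all measured genes: 19.3% lower and 20.3% higher at 8 h, 19.4% and 20.7% at 16 h. Among 15 genes of SREBP processing and its cofactors, all measured, 3 were lower and 2 higher at 8 h, with a median log2 ratio of −0.03, so the share lower was near that of all genes. Erlin2, which binds the Insig and SREBP complex, had 100.2, 69.1, 68.5 and 102.6 CPM in the no LPS, 8 h, 16 h and 20 h libraries and was 1.45-fold lower at 8 h (1.37 to 1.54). Sp1, the cofactor whose box was searched for above, was 1.57-fold higher at 8 h (1.52 to 1.63) and 1.60-fold higher at 16 h.

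Of 9 genes of isoprenoid branches 1 was lower and 1 higher at 8 h, and 2 were lower and 4 higher at 16 h. Dhdds, a subunit of the enzyme that makes dolichol precursors, was 1.51-fold lower at 8 h and 1.66-fold lower at 16 h. Fntb, the farnesyltransferase subunit, was 1.47-fold and 1.53-fold higher. Pdss2, which builds the tail of ubiquinone, was the only gene of the list past the rule at 20 h, at 1.28-fold higher (1.07 to 1.55).

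Of 14 genes of oxysterol sensing and sterol export, 13 were measured, and 2 were lower and none higher at 8 h. Nr1h3, the nuclear receptor LXR alpha, had 91, 60, 42 and 63 reads in the no LPS, 8 h, 16 h and 20 h libraries. It was 2.12-fold lower at 16 h than with no LPS (1.46 to 3.14). At 20 h Nr1h3 was also past the rule, 1.42-fold lower (1.02 to 1.98). Mylip, a ubiquitin ligase whose gene is an LXR target, had 108, 47, 53 and 116 reads and was 2.33-fold lower at 8 h (1.64 to 3.36). Of 24 genes of fatty acid supply 21 were measured, with 6 lower and 5 higher at 8 h, shares near or a little above those of all genes. Acsl3, which activates long-chain fatty acids, had 97.7, 51.7, 47.1 and 97.1 CPM and was 1.89-fold lower at 8 h and 2.07-fold lower at 16 h. Acacb, the mitochondrial acetyl-CoA carboxylase, was 2.15-fold higher at 8 h (1.40 to 3.38) on 70 reads, against 32 with no LPS.

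Markers of other cells were measured beside these genes. Of 7 fibroblast and lipofibroblast markers 4 were measured. The 7 summed to 327, 242, 250 and 307 CPM in the no LPS, 8 h, 16 h and 20 h libraries. Tcf21 had 0 reads in every library, Col1a1 had 2, 3, 4 and 0 reads, and Col1a2 had 0, 0, 1 and 0. The 4 measured markers did not move alike: Col3a1 had 168, 81.8, 83.2 and 163 CPM and Dcn 9.48, 2.96, 3.43 and 7.73 CPM, while Pdgfra had 34.1, 31.3, 34.4 and 31.8 CPM and Plin2 116, 126, 129 and 105 CPM. Of 8 lung epithelial markers only Abca3 was measured, Sftpb had 0 reads in every library, and the sum ran from 39.6 to 52.5 CPM. Of 5 adipocyte markers only Fabp4 was measured, with Plin1 and Lep at 0, and the sum ran from 38.6 to 47.6 CPM. Of 6 leukocyte markers 3 were measured, Cd3e had 0 reads, and the sum ran from 23.6 to 28.1 CPM. Most of it was Lyz2, at 21.5, 23.0, 24.5 and 25.6 CPM in the no LPS, 8 h, 16 h and 20 h libraries. In the same order Ptprc, the gene of CD45, had 42, 37, 31 and 38 reads, and Csf1r had 9, 15, 30 and 26. Of 4 hepatocyte markers none was measured, Alb, Ttr and Serpina1a had 0 reads, and the sum was at most 0.108 CPM. The part of these other cells in the sterol values was not tested.

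A linear trend in hours over the 4 libraries was the only kind of test run. It called none of the 11803 genes (0%) at an adjusted p below 0.05 in edgeR's quasi-likelihood test. At an unadjusted p below 0.05 it gave 43 genes, and DESeq2 gave 0 adjusted and 25 unadjusted. None of the 32 genes was among the 43, and the smallest unadjusted p among the 32 was 0.225, for Idi1. The trend used 2 residual degrees of freedom and treats the 4 libraries as a single course. The sources used here do not identify the animals behind each library. The 8 h and 16 h libraries were alike, and so were the 20 h and no LPS libraries. A straight line in hours describes such values poorly, so the lack of calls does not show a lack of difference.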

How the data were processed

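Each of 4 labels had 1 library. Whole-number counts of reads per gene were deposited by the authors, who used STAR and featureCounts on mm10. This is per the submitters' processing notes. The sources used here do not state versions, parameters, the annotation, strand handling or how multi-mapped reads were treated. Symbols and coordinates came from GENCODE M21 (GRCm38) by stable identifier, which matched 38872 of 39056. Totals were 28060685, 28905776, 27843147 and 27566454 reads (no LPS, 8, 16 and 20 h), and 3 reads, the limit that a count of 0 allows, came to 0.104 to 0.108 CPM.

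Counts were scaled with TMM factors from all 4 libraries in edgeR 4.0.16 (R 4.3.3). A gene was called at a level 20% or more below, or 25% or more above, that of the other library (also at 2-fold), if the exact conditional binomial (Clopper-Pearson) 95% interval left out 1 and the higher library had 1 CPM or more; intervals cover counting error only. Log2 ratios used a prior count of 2. The trend on hours was fitted with glmQLFit and glmQLFTest with Benjamini-Hochberg adjustment over all measured genes, with DESeq2 1.42.0 as an alternative. The rule of size and the edgeR trend were also run on simulated counts with known changes. Those counts did not hold the pattern of 2 low and 2 high libraries, and the real spread between animals is unknown. All 32 genes are named, and, of the other lists, genes past 2-fold against no LPS or else the 3 with the largest log2 ratio at 8 h. A gene that this rule selects is not reported here. Copies were counted at 95% identity or more over 200 bases or more. Alternatives were other scalings, filters, prior counts, fold and interval levels, a correction for GC content and a left-out library in the trend. The removal of genes with such copies or with exons shared with protein-coding genes was chosen after seeing the data. So was the removal of the 4 genes with the largest differences. The members and lists were chosen with earlier results of these data known.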

Additional observations from a re-analysis of the deposited data

How the results depend on the processing

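With a fold of at least 1.5, 6 of the 32 genes were past the rule at 8 h and 6 at 16 h against no LPS, all lower, 5 at 20 h against 16 h, all higher, and 0 at 16 h against 8 h. The last count, 1 (Tm7sf2) as reported, was also 0 with a minimum of 10 CPM and with a stricter interval. It was 0 too without the 10 genes that have copies of at least 95% identity or share exons with protein-coding genes. Hmgcs1, Lss and Scap, whose exons overlap only other kinds of transcript model, were kept in that setting. As reported, the counts were 19, 17 and 16 for 8 h and 16 h against no LPS and 20 h against 16 h. In the settings run other than the larger fold, these 3 counts stayed within 1.5 times the reported ones. In no setting run did the median log2 ratio of the 32 genes reverse in these 3 comparisons. This does not cover the direction of single genes with ratios near 1. Of the single genes' ratios under the alternatives, 950 stayed within their counting interval and 10 moved beyond it, mostly under the GC correction (Srebf2, Scap and Fasn), which made the 8 h ratios of Srebf2 and Scap −0.40 and −0.41. No paired analysis was possible because each label has 1 library. The linear trend called 0 genes in every setting run. Leaving out the no LPS library gave 540 of 11721 genes at an unadjusted p below 0.05 in the edgeR trend. Among them were 4 of the 31 sterol and fatty acid genes tested. Leaving out the 20 h library gave 2110 of 11716, among them 9 of the 32. With all 4 libraries there were 43, none of them among the 32. The smallest adjusted p among the 31 and the 32 genes was 0.784 and 0.239. Whether these shares differ was not tested. Depth limits Idi1, at 17 to 38 reads per library.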
